A study of Arabidopsis thaliana with 16 samples.

Results

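WRKY binding sites in wild-type Arabidopsis thaliana seedlings were compared between 2 h of flg22 and 0 h. The comparison rests on 4 of the 8 peak lists of the study, 2 biological replicates at each time, and the study holds 16 libraries in all with the inputs. The treated group was Col-0 wild type (WT), 12-day-old seedlings whose growth medium had been exchanged for one with 1 µM flg22. The untreated group was WT of the same age, sampled at 0 h. The wrky18 wrky40 wrky33 triple mutant, also with 2 replicates at 2 h of flg22 and 2 untreated at 0 h, served only as a separate readout at the WT sites. No group was sampled 2 h after a medium change without flg22, so the peptide and the time or handling that went with it cannot be told apart. Chromatin was precipitated with 1 serum against all WRKY proteins, which does not tell the family members apart, and the DNA passed through 2 rounds of linear amplification. Input DNA was the control for peak calling. The labels name 2 biological replicates and give no further detail on how the plants were pooled.

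The 4 WT lists held 6904 of the 14333 peaks of the study. Merged where they shared 1 bp or more, they formed 3230 regions, 500 bp wide at the median, against 3886 regions when all 8 lists were merged. Of the 3230 regions, 592 were called in all 4 lists, 502 in 3, 829 in 2 and 1307 in 1. A region was named gained when both 2 h lists and neither 0 h list called it, and lost in the reverse case. This gave 255 gained regions (7.89% of the WT regions) and 68 lost regions (2.11%). With every list held to the length of the shortest, 104 regions were gained and 125 lost, so the excess of gains was not seen at equal list length. That setting balances the 2 counts by its construction, so it cannot decide whether gains outnumbered losses. The regions were assigned by the authors' nearest-promoter column to 247 genes for the gained and 68 for the lost set. A peak says that the authors' caller found enrichment over input in that library, and an absent peak is no measure of zero binding. The tables carry no read counts, and the depth of a library at any one peak is unknown.

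flg22 is a conserved stretch of bacterial flagellin that plants perceive at the cell surface through the receptor kinase FLS2 and its partner BAK1. Perception triggers calcium influx, an oxidative burst, MAP kinase activation and a fast change in transcription. WRKY proteins are plant transcription factors that bind a short element called the W-box, and several WRKY genes are themselves early targets of flagellin signalling. Other outputs of the same response include ethylene synthesis, indole metabolites with antimicrobial activity, and ubiquitin ligases that dampen signalling.

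More peaks were called at 2 h. The lists held 1992 and 2074 peaks at 2 h (2033 ± 58.0, SD, n = 2), against 1372 and 1466 at 0 h (1419 ± 66.5). Both 2 h lists were longer than both 0 h lists, and the difference of 614 peaks reached an exact permutation p of 0.333 (two-sided), the lowest value open to 2 against 2 libraries. Another score of the authors is the ef score. Peaks with an ef score of 5 or more numbered 1361 and 1986 at 2 h and 1106 and 1406 at 0 h. Taken without pairing, the times overlapped (exact permutation p = 0.667, two-sided). Within each same-numbered replicate pair the 2 h list held more, 1361 against 1106 and 1986 against 1406. Genes with a peak numbered 1848 and 1896 at 2 h and 1332 and 1417 at 0 h. The list of 0 h replicate 1 ran to region number 1508 with 136 numbers absent, and at 1508 peaks it would still be shorter than either 2 h list. The larger 2 h lists were also less concentrated at promoters. Promoter peaks made up 61.3% and 61.4% of the 2 h lists, against 67.4% and 67.1% of the 0 h lists (difference -5.87 percentage points, exact permutation p = 0.333). Intergenic peaks made up 18.5% and 17.4% at 2 h, against 13.4% and 13.6% at 0 h. For neither class did the 2 times overlap.

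**Figure D1:**
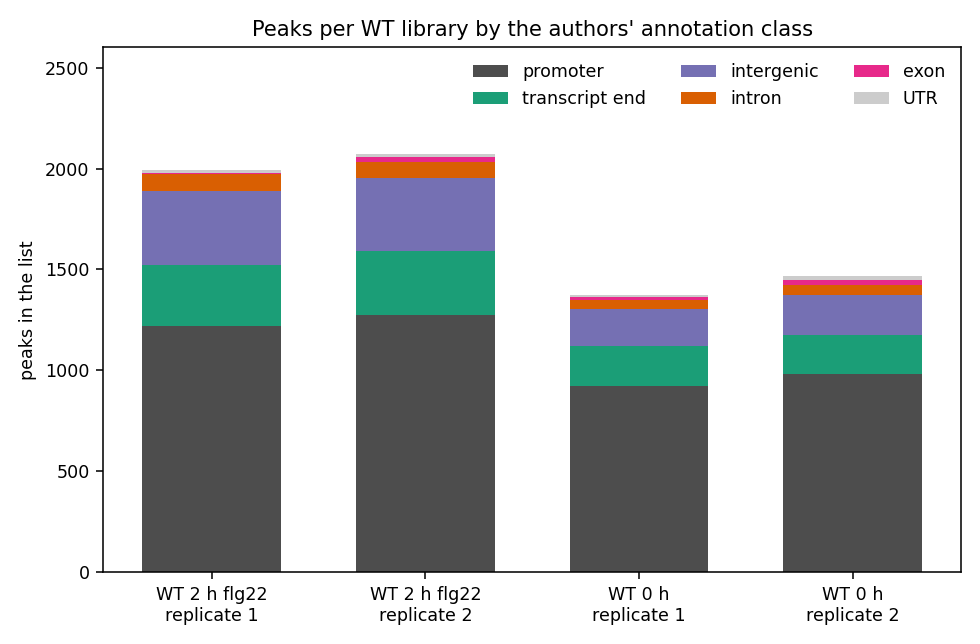
Number of peaks in each WT list, stacked by the authors' annotation class, with the 2 replicates of 2 h flg22 on the left and those of 0 h on the right. The 2 h lists reach 1992 and 2074 peaks and the 0 h lists 1372 and 1466.

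Gained regions lay farther from transcription start sites than lost ones. Of the 255 gained regions, 140 (54.9%) were annotated as promoter, 59 (23.1%) as intergenic and 42 (16.5%) as transcript end. Among the 68 lost regions, 50 (73.5%) were promoter, 4 (5.88%) intergenic and 10 (14.7%) transcript end. Regions called in all 4 lists lay between the 2 sets, with 65.7% promoter and 16.0% intergenic. The distance to the transcription start site (TSS) of the assigned gene was at most 500 bp for 37.6% of gained and 69.1% of lost regions. The site lay more than 1000 bp upstream of the TSS for 28.6% of gained and 11.8% of lost regions. The class and the distance come from the peak whose score ranked highest within its own list. A site of the transcript-end class can lie at the end of a neighbour of its assigned gene. Regions within a set share libraries, so these shares are a description and carry no test of their own.

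**Figure D2:**
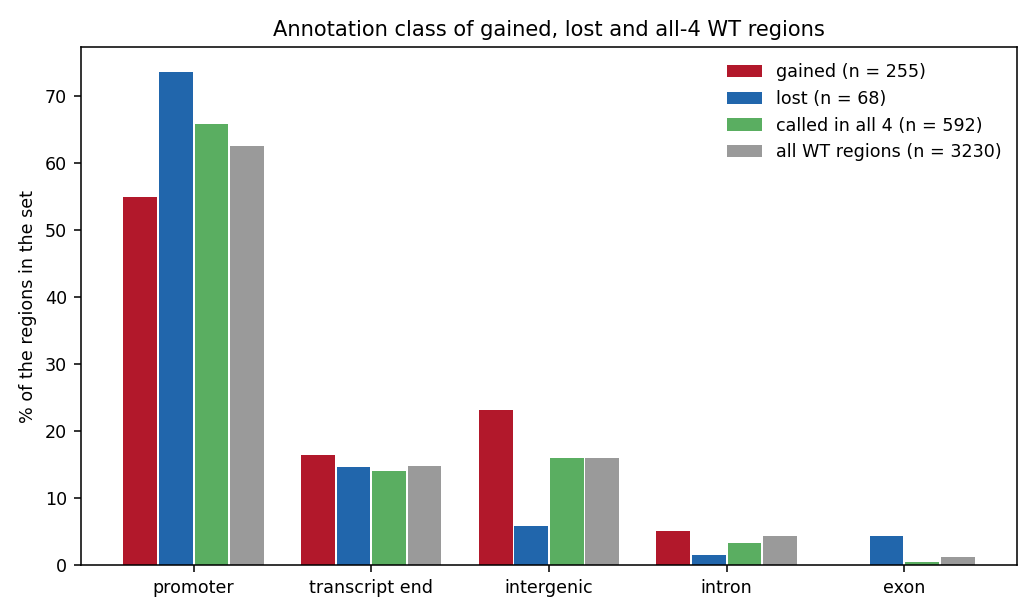
Share of regions in each annotation class for gained, lost and all-4 WT regions and for all WT regions, in percent of each set. Promoter regions make up 54.9% of the gained and 73.5% of the lost set, and intergenic regions 23.1% and 5.88%.

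To place a peak within its list, the authors' ChIP score was turned into a percentile, in which 100 is the top peak of that list. The score is the authors' own value per peak, on a scale that neither labels nor headers explain. Gained regions had a median mean percentile of 43.9 at 2 h, with 18 regions at 75 or above and 43 at 25 or below. Lost regions had a median of 31.3 at 0 h, with 1 region at 75 or above and 27 at 25 or below. The regions called in all 4 lists had a median mean percentile of 70.9 at 2 h and 64.7 at 0 h.

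The highest gained region lay 386 bp upstream of AT1G26380, annotated as an FAD-binding and BBE domain protein, on chromosome 1 at 9128450 to 9129378 (TAIR10). It stood at percentiles of 99.7 and 94.4 in the 2 h lists, and neither 0 h list called it. It was thus among the strongest peaks of both 2 h replicates. HSF A4A, a heat stress transcription factor gene, carried a gained promoter region on chromosome 4 at 10349413 to 10350595, with percentiles of 93.9 and 85.1 at 2 h. A site 3280 bp upstream of AT1G62301, on chromosome 1 at 23023430 to 23024501, had 93.0 and 86.5. Both replicates ranked these sites in the upper part of the list.

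Other regions among the 15 highest gained lay at genes of varied annotation. LUL3, a RING-type ubiquitin ligase gene, had 98.3 and 62.6 at a promoter region 301 bp upstream of its TSS. AT5G53110, annotated as a RING/U-box protein, had 88.1 and 76.9 at an intron 958 bp downstream of the TSS. AT1G14330, annotated as the F-box protein SKIP11, had 88.3 and 70.6. A nearby gained region, assigned to AT1G14340, an RNA recognition motif protein, had 75.9 and 91.6. These gained regions lie on chromosome 1 at 4893811 to 4894600 and 4895498 to 4896283, upstream of both genes. Between them lay a further AT1G14340 region, 2314 bp upstream of its TSS, that was called in both 2 h lists and in 0 h replicate 1. EXO70H7 encodes a subunit of the exocyst, the complex that tethers secretory vesicles to the plasma membrane, and its gained region had 85.6 and 79.6. AT5G65600, a lectin receptor kinase gene, had 79.9 and 73.8 at 71 bp upstream of its TSS. The others of the 15 were AT2G02210 (a pseudogene), AT2G46630, AT4G31960, bZIP2, AT2G27389 and AT5G47730, with percentiles from 62.6 to 94.5. Of the 15 regions, 8 were of the promoter class.

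Genes were then read through 12 lists of immune genes, with photosynthesis and housekeeping genes as 2 control lists. Of the 374 immune genes, 98 (26.2%) had a peak in both 2 h lists and 58 (15.5%) in both 0 h lists, against 3.87% and 2.83% of all nuclear protein-coding genes. A gained region lay at 28 immune genes (7.49%) and a lost one at 6 (1.60%), against 0.864% and 0.24% of all such genes. The 29 gained regions at immune genes were of the promoter class in 15 cases, transcript end in 9 and intergenic in 5. Of the 38 photosynthesis genes none had a peak in both 2 h lists and 1 in both 0 h lists, and of the 19 housekeeping genes none did at either time. No control gene had a gained or lost region. At shares of 0.864% and 0.24%, lists of 38 and 19 genes can lack both without differing from all genes. Assignment to the nearest promoter at any distance gives more peaks to genes beside long intergenic stretches, and these shares carry no test. The gene lists were also chosen with earlier results of these data known, so their excess over all genes is a description only.

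Ligands and receptors at the cell surface come first. In the list of pattern perception and early signalling, 14 of 49 genes had a peak in both 2 h lists and 10 in both 0 h lists, with 3 gained genes and 1 lost. RALFL21, which encodes a secreted peptide of the RALF family, had 56.0 and 82.6 at 2 h at its promoter (chromosome 3, 1292751 to 1293190). PEPR1, the receptor kinase for the Pep danger peptides, had 75.2 and 35.5 at 436 bp upstream of its TSS. LRR XI-23, a leucine-rich repeat receptor kinase gene, had a gained region on either side, 2935 bp upstream (37.8 and 12.8) and 3567 bp downstream of its TSS (57.9 and 22.3). All of these lacked a peak in both 0 h lists, and their rank at 2 h differed widely between replicates. Among cysteine-rich and wall-associated receptor kinases, 9 of 27 genes were called in both 2 h lists and 4 in both 0 h lists. The gained members were CRK2, with 29.4 and 59.6, and CRK28, with 2.53 and 22.3, both at promoters. CRK28 was close to the bottom of its 2 h replicate 1 list.

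Signalling components behind the receptors carried both gained and lost regions. MPK3, a MAP kinase that flg22 activates, had a lost promoter region on chromosome 3 at 16756445 to 16756903, with 52.7 and 41.3 at 0 h and no peak in either 2 h list. Among calcium sensors and channels, 4 of 28 genes were called in both 2 h lists and 3 in both 0 h lists. The gained one was AT5G39670, a putative calcium-binding protein, with 54.5 and 15.7. Its site was of the transcript-end class, 1438 bp upstream of its TSS. A promoter region of AT5G39670, 34 bp upstream, was neither gained nor lost. Of the ubiquitin ligases of immunity, 9 of 16 genes were called in both 2 h lists and 5 in both 0 h lists. PUB24, one of the U-box ligases that restrain pattern-triggered immunity, had 74.4 and 77.7 at 2 h, at 127 bp upstream of its TSS. AT5G37490, annotated as U-box protein 21, had 50.7 and 54.6 at 100 bp downstream of the TSS. These regions held nearly the same rank in both 2 h replicates.

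Ethylene genes included gained regions at synthesis and at response. Of 27 genes, 9 were called in both 2 h lists and 5 in both 0 h lists. A gained region lay at 4 (14.8%) and a lost one at none, against 0.864% and 0.24% of all nuclear protein-coding genes. A list of 27 genes can lack a lost member at that share. ACS6 and ACS7 encode ACC synthases, the committed enzymes of ethylene production. ACS6 had 42.8 and 61.2 at its gained promoter site, chromosome 4 from 6863667 to 6864150, and ACS7 had 53.2 and 77.7 near a transcript end, 2780 bp downstream of its TSS. This merged ACS7 region was 2953 bp wide, and its peaks were assigned to 2 genes. A promoter region of ACS7, 207 bp upstream of its TSS, was neither gained nor lost. EBF2, an F-box protein that removes the ethylene regulator EIN3, had 67.5 and 43.2. ERF5, an ethylene response factor, had 69.4 and 38.4. Both of these regions were of the transcript-end class.

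Indole metabolism, the source of camalexin and indole glucosinolates, had 11 of 31 genes called in both 2 h lists and 6 in both 0 h lists. Besides AT1G26380, the gained genes were IGMT1 and IGMT4, methyltransferases that modify indole glucosinolates, with 50.7 and 70.6 for IGMT1 and 16.6 and 19.1 for IGMT4. Their regions lie close together on chromosome 1, at 7388412 to 7389555 and 7400586 to 7401332. The labels do not state how reads that match more than 1 of these related genes were treated. PEN2, a myrosinase that acts on indole glucosinolates in defence, had a lost intergenic region 4222 bp downstream of its TSS, with 27.2 and 40.1 at 0 h. A promoter region of PEN2, 996 bp upstream of the TSS, was called in all 4 lists, and another, 27 bp upstream, in 3.

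In the jasmonate list, 4 of 31 genes were called in both 2 h lists and 1 in both 0 h lists. JAZ6, a repressor of jasmonate signalling, had 73.5 and 37.0 at 1189 bp upstream of its TSS, and LOX3, a lipoxygenase of jasmonate synthesis, had 9.64 and 19.1. LOX1 had a lost region 2551 bp upstream of its TSS, with 91.6 and 53.8 at 0 h. It encodes a lipoxygenase that acts outside jasmonate synthesis. In the salicylic acid list, 4 of 29 genes were called in both 2 h lists and 2 in both 0 h lists. SAG101, a partner of the immune regulator EDS1, had 42.8 and 71.1 at 2 h. NPR3, a salicylic acid receptor, had 54.5 and 1.23, so its call at 2 h replicate 2 was one of the lowest of that list.

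Gained regions lay at 2 of 72 WRKY genes (2.78%), 3 of 15 genes for VQ-motif proteins (20.0%) and 4 of 29 other stress transcription factor genes (13.8%), against 0.864% of all nuclear protein-coding genes. Of the 72 WRKY genes, 17 were called in both 2 h lists and 11 in both 0 h lists, and all 11 were among the 17. The gained WRKY genes were WRKY75, with 2.53 and 69.2 at an intergenic site 1338 bp upstream of its TSS, and ZAP1 (WRKY1), with 8.43 and 15.7. Both had a low rank in 2 h replicate 1. Of the 15 genes for VQ-motif proteins, partners of WRKY factors, 7 were called in both 2 h lists and 3 in both 0 h lists. The gained ones were AT1G28280 (56.7 and 62.6), AT5G53830 (64.5 and 40.7) and PDE337 (30.3 and 37.0). The AT1G28280 and AT5G53830 sites were of the transcript-end class, and that of PDE337 was intergenic, 3217 bp upstream of its TSS. A promoter region of PDE337, 174 bp upstream, was neither gained nor lost. Among other stress transcription factors, 10 of 29 were called in both 2 h lists and 5 in both 0 h lists. The gained genes beside HSF A4A were the NAC factors ATAF2 (90.8 and 23.5) and NAC3 (47.1 and 58.0) and the MYB factor MYB15 (39.7 and 28.1). The ATAF2 and NAC3 sites were of the transcript-end class, and that of MYB15 was intergenic. A promoter region of ATAF2, 218 bp upstream of its TSS, was neither gained nor lost. No gene of these 3 lists had a lost region, where 0.24% of all nuclear protein-coding genes had one. At so low a share, lists of this size can lack a lost member without differing from all genes.

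Intracellular immune receptors and their helpers formed a list with lost regions and no gained ones. Of 22 genes, none was called in both 2 h lists and 3 (13.6%) were called in both 0 h lists, all of them lost. Over all nuclear protein-coding genes, 3.87% were called in both 2 h lists and 2.83% in both 0 h lists, with 0.864% gained and 0.24% lost. At so low a gained share, a list of 22 genes can lack a gained member without differing from all genes. The lost count rests on 3 genes and was not tested. RPM1, a receptor that guards the immune regulator RIN4, had 50.4 and 62.8 at 0 h, on chromosome 3 at 2229000 to 2229456. RIN4 itself had 53.3 and 66.1 at 0 h, at 1 bp upstream of its TSS on chromosome 3 at 9132069 to 9132564. AT5G66900, annotated as a disease resistance protein of the CC-NBS-LRR class, had 6.52 and 18.3. Neither 2 h list called these 3 sites. The highest of all lost regions lay 151 bp upstream of the non-coding RNA gene AT1G18382, with 94.4 and 97.2 at 0 h, and it was the only lost region with a mean percentile of 75 or above. It was followed by LOX1, AT3G26440 (74.8 and 60.9), AT3G25720 (53.9 and 68.3) and ESK1 (54.7 and 67.4).

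**Figure D3:**
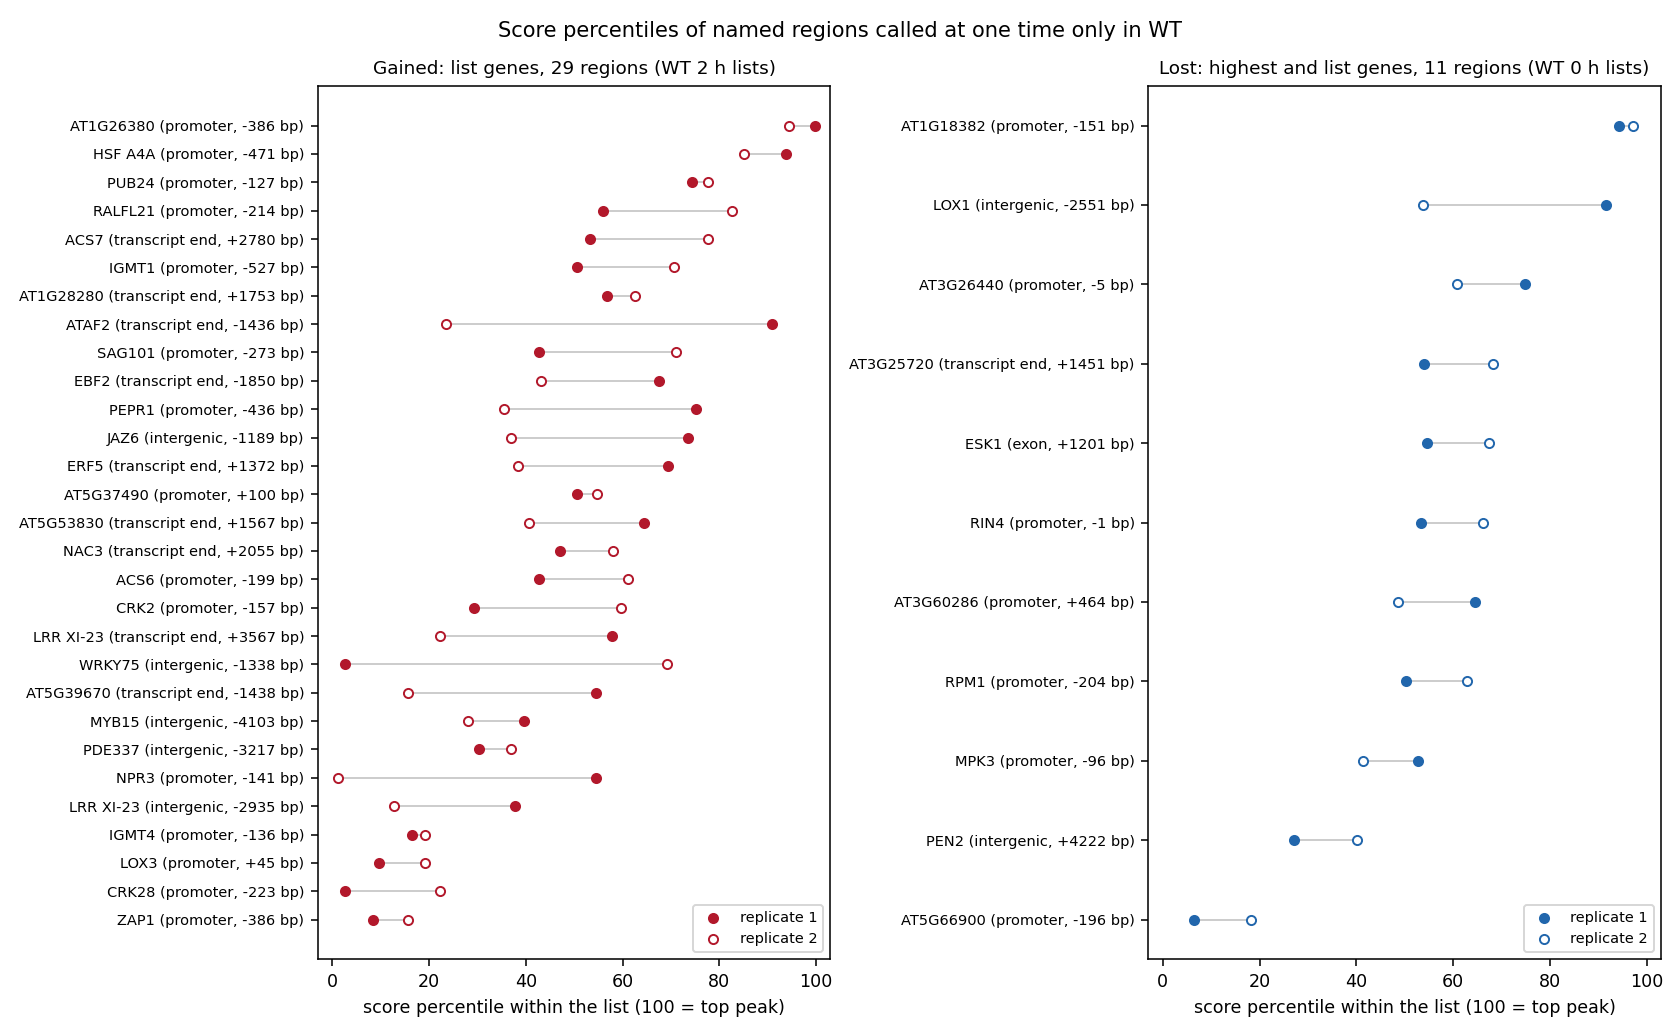
Within-list score percentile of gained regions at immune list genes in the 2 h lists (left) and of the highest lost regions and those at list genes in the 0 h lists (right), with filled points for replicate 1 and open points for replicate 2. AT1G26380 lies near 100 in both 2 h lists, while WRKY75 and NPR3 lie near the bottom of one list and far higher in the other.

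Some gained regions were a further site of a gene with peaks at 0 h. For 15 of the 255 gained regions (5.88%) the same gene had another region called in both 0 h lists, and for 34 (13.3%) it had one in at least 1 of them. For 2 of the 68 lost regions (2.94%) the gene had another region in both 2 h lists, and for 4 (5.88%) in at least 1. MYB15 had the gained site 4103 bp upstream and a site called in all 4 lists 1261 bp upstream of its TSS. ACS6 had the gained promoter site at 199 bp and a site called in all 4 lists at 1785 bp upstream, with 99.9 and 88.5 at 2 h and 95.4 and 39.0 at 0 h. EXO70H7 had its gained site 3210 bp upstream and a promoter site at 157 bp called in all 4 lists. At 8 genes there were 2 or more gained regions, among them LRR XI-23, AT1G62301 and AT5G65600.

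Among the 592 regions called in all 4 lists, 132 (22.3%) had both 2 h percentiles above both 0 h percentiles and 102 (17.2%) had both below. The median difference, 2 h minus 0 h, was 1.94 percentile points, with 0.34 in replicate pair 1 and 3.84 in pair 2. The spread between replicates was as large as the difference between times: the median absolute difference was 17.1 between the 2 h replicates and 16.1 between the 0 h replicates, against 16.1 and 14.2 between times within pairs 1 and 2. A longer list moves the percentile of a strong site by itself, so ranks from lists of unequal length cannot show whether binding changed. Ranked among the 592 regions alone, 106 were above and 133 below, so the direction of the excess depends on the ranking.

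The largest upward differences were at CCR4, a receptor-like kinase gene, whose region had 82.6 and 88.2 at 2 h and 2.15 and 16.5 at 0 h, a difference of 76.1 points. AT2G43610, a putative chitinase gene, had 92.4 and 65.1 at 2 h and 28.3 and 1.36 at 0 h. SNAP33, a SNARE protein of secretion and defence at the plasma membrane, had 96.5 and 81.2 at 2 h and 52.7 and 9.72 at 0 h. The rule for naming these regions required both 2 h values above both 0 h values, and at SNAP33 the 0 h replicates themselves were far apart. ACS8, a further ACC synthase gene, had 66.6 and 89.5 at 2 h and 10.2 and 32.5 at 0 h. The glutamate receptor-like channel gene GLR2.9 had 80.4 and 64.4 at 2 h and 23.0 and 8.22 at 0 h. RHA1A, AT4G14450 and AT1G34320 complete the 8 largest, with differences of 58.1 to 63.2 points.

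The largest downward difference was at AT2G46735, with 4.04 and 19.1 at 2 h and 87.0 and 59.6 at 0 h. SCPL19, an acyltransferase that makes sinapoylcholine, had 14.0 and 38.4 at 2 h and 75 and 84.4 at 0 h. AT1G77290, annotated as glutathione S-transferase-like, had 22.4 and 45.5 at 2 h and 89.8 and 82.9 at 0 h. The rule for naming these regions required both 2 h values below both 0 h values. AT1G72141, AT3G21080, ckl12, AT1G69890 and AT1G30700 complete the 8, with differences of -51.7 to -58.2 points.

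**Figure D4:**
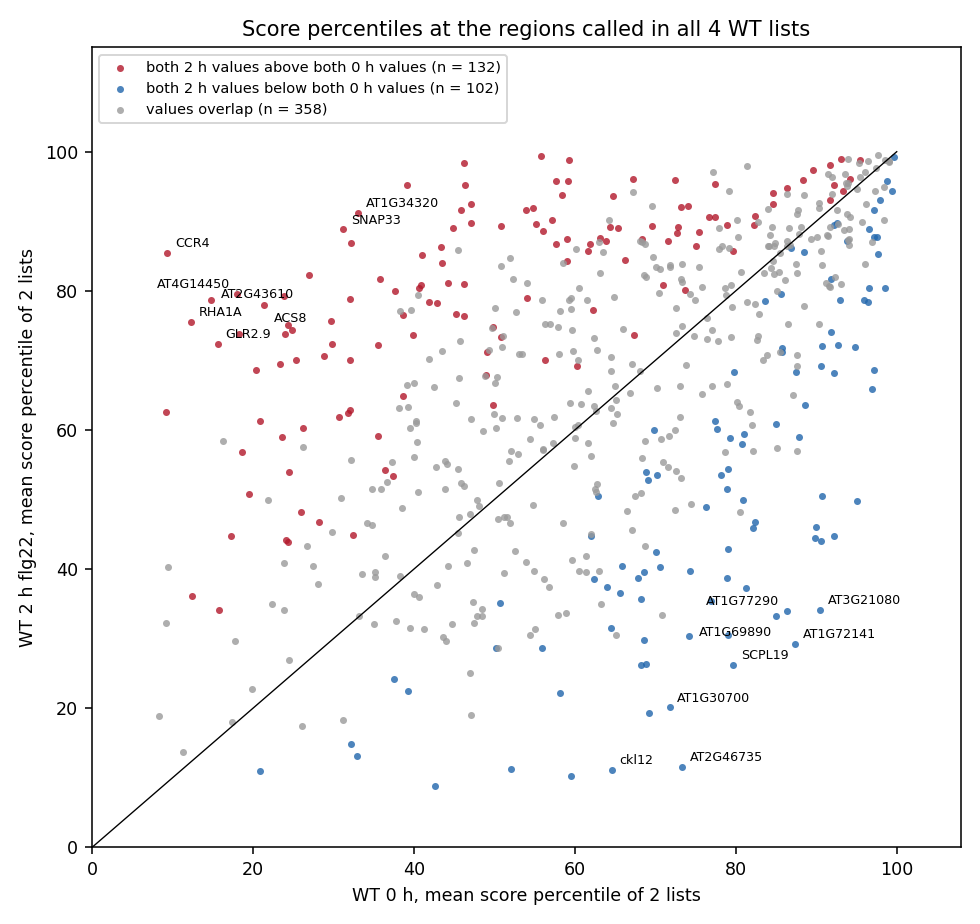
Mean within-list score percentile at 2 h (vertical) against 0 h (horizontal) for the 592 regions called in all 4 WT lists, with the line of equal values. Red points (132) have both 2 h values above both 0 h values and blue points (102) both below, and CCR4 lies farthest above the line.

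At immune list genes, 50 regions were called in all 4 lists, of which 15 (30.0%) were above and 2 (4.00%) below, against 22.3% and 17.2% of all 592. EFE, an ACC oxidase that forms ethylene, had 78.0 and 72.3 at 2 h and 32.2 and 16.5 at 0 h. MYB15, at its site 1261 bp upstream, had 62.9 and 84.8 at 2 h and 28.3 and 19.8 at 0 h. PROPEP2, which encodes a precursor of the ligands of PEPR1, had 77.1 and 79.3 at 2 h and 39.98 and 45.63 at 0 h. These regions were picked from the 15 above, so the lack of overlap between their times follows from that choice. The 13 WRKY regions had a median difference of 5.27 points against 1.98 at all nuclear protein-coding genes, with 4 (30.8%) above and 0 below. WRKY41 had 83.5 and 94.6 at 2 h and 54.7 and 35.1 at 0 h, and WRKY60 had 95.3 and 83.9 at 2 h and 81.2 and 29.2 at 0 h. WRKY53 had 97.9 and 98.2 at 2 h and 93.7 and 89.6 at 0 h. WRKY15 was above at one of its sites, 677 bp upstream of the TSS. At the other WRKY regions the times overlapped. Their mean difference was positive at WRKY17 (24.0 points), WRKY8 (7.94), WRKY33 (5.27) and WRKY48 (4.61). It was negative at WRKY30 (-5.79), WRKY47 (-2.89), both WRKY40 sites (-6.62 and -13.4) and the other WRKY15 site (-0.114). In the indole list CYP83B1, a cytochrome P450 of indole glucosinolate synthesis, had 63.2 and 89.8 at 2 h and 16.4 and 60.9 at 0 h. Of the 15 regions above, 1 was lower in the ranking among the 592 regions, that at AT4G08850. The 2 below were the promoter regions of PEN2, with 52.1 and 91.9 at 2 h and 96.9 and 92.8 at 0 h, and of PUB23, a relative of PUB24, with 55.2 and 47.7 at 2 h and 84.7 and 73.1 at 0 h.

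WRKY18, WRKY40 and WRKY33, the genes mutated elsewhere in the study, were neither gained nor lost. WRKY33 had 94.2 and 93.3 at 2 h and 82.9 and 94.0 at 0 h, and its values overlapped. WRKY40 had 2 regions called in all 4 lists, with 44.5 and 95.5 at 2 h and 71.2 and 95.7 at 0 h at the promoter. WRKY18 was called in replicate 2 only, with 38.4 at 2 h and 13.0 at 0 h. FRK1, a receptor kinase gene widely taken as a reporter of flg22 signalling, had 12.7 and 32.4 at 2 h, and at 0 h no call in replicate 1 and 23.6 in replicate 2.

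The triple mutant wrky18 wrky40 wrky33, given flg22 and sampled in the same way, offered lists that the choice of WT regions had not used. At the 255 regions gained in WT, the mutant 2 h lists had a peak at 63.1% and 49.8% and the mutant 0 h lists at 16.9% and 16.5%. At the 68 lost regions the mutant 2 h lists had a peak at 36.8% and 63.2%, and the mutant 0 h lists at 70.6% and 76.5%. In both sets the times differed in the same direction as in WT and did not overlap, by 39.8 percentage points at gained and -23.5 at lost regions (exact permutation p = 0.333 for each, the smallest possible). Over all 3230 WT regions the difference was 11.5 points, with 55.5% and 56.7% at 2 h and 42.3% and 46.8% at 0 h. Regions called in all 4 WT lists had a mutant peak in 97.8% and 95.9% of cases at 2 h and 92.4% and 92.9% at 0 h. The mutant lists share replicate numbers with the WT lists, and the serum cannot say which WRKY protein was bound.

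**Figure D5:**
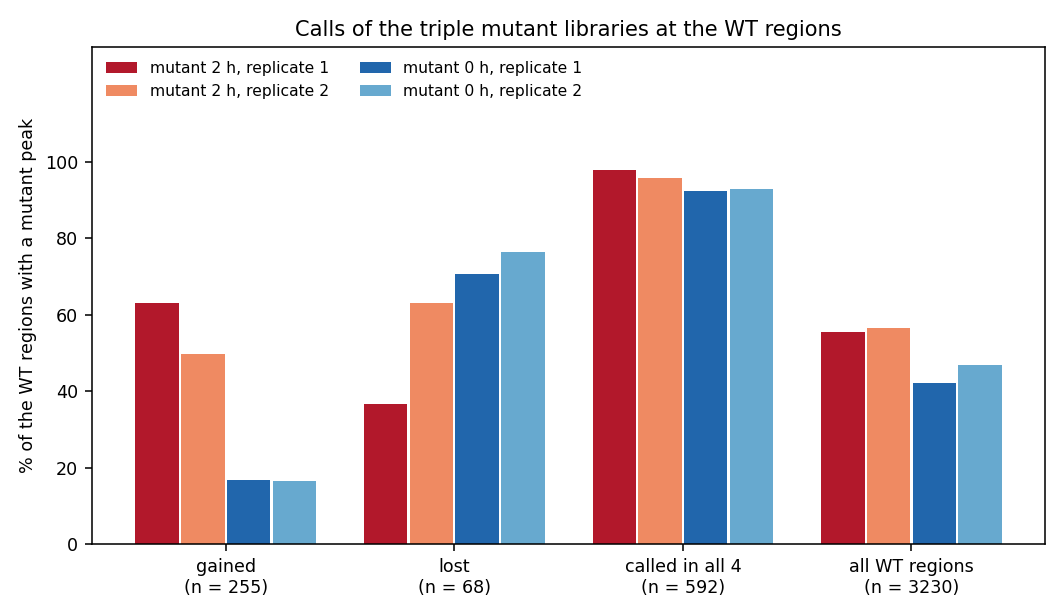
Share of WT regions with a peak in each triple mutant list, in percent of the set, with the 2 h lists left of the 0 h lists. At gained regions the 2 h lists reach 63.1% and 49.8% and the 0 h lists 16.9% and 16.5%, and the order is reversed at lost regions.

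By region, 83 of the 255 gained sites were called in both mutant 2 h lists, and 44 of these in neither mutant 0 h list. Another 46 gained sites had no peak in any mutant list. Of all 3230 WT regions, 1127 were called in both mutant 2 h lists, and 102 of these in neither mutant 0 h list. A further 614 of the 3230 had no peak in any mutant list. The shares called in both mutant 2 h lists, and in no mutant list, were thus close to those of all WT regions. The share called in both mutant 2 h lists and neither mutant 0 h list was higher, at 44 of 255 gained regions against 102 of 3230. The 102 include the 44, and this contrast was not tested. PUB24 followed the WT pattern, with 74.5 and 38.0 in the mutant 2 h lists and no call at 0 h. RALFL21 did so too, with 47.9 and 68.3 at 2 h, as did bZIP2, with 73.6 and 14.0. AT1G26380 had 99.6 and 78.7 in the mutant at 2 h and was also called in both mutant 0 h lists, at 90.5 and 11.4. ZAP1, CRK28, IGMT4 and NPR3 had no call in the mutant at any time. Among lost sites, RPM1 kept a call in the mutant, with 6.95 and 47.4 at 2 h and 48.0 and 49.4 at 0 h. MPK3 did as well, with 12.7 and 24.3 at 2 h and 30.4 and 67.3 at 0 h. RIN4 was called in mutant replicate 2 alone, at 66.4 at 2 h and 74.0 at 0 h, while AT1G18382 had 95.1 and 93.2 at 0 h and no call at 2 h. Of the 15 highest gained regions, 11 were called in both mutant 2 h lists and 9 in at least 1 mutant 0 h list. Of all 255 gained regions, these counts were 83 and 72. Most of the 15 highest thus also had a peak in untreated mutant seedlings.

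One limit concerns 0 h replicate 1, whose 136 absent region numbers (9.02%) can hold calls that would turn a gained region into one called at both times. Regions called in both 2 h lists and at 0 h in replicate 2 alone numbered 149, and in replicate 1 alone 174. Mutant 0 h replicate 1 called 85 of the 149, 127 of the 174 and 43 of the 255 gained regions.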

How the data were processed

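Per the labels, anti-WRKY ChIP-seq libraries of WT and triple mutant seedlings were amplified linearly and sequenced as single-end reads, with input libraries as negative controls for peak calling. The submitters' processing notes list HOMER, SAMtools 0.1.18, Bowtie2 2.0.5, cutadapt 1.2.1 and FastQC 0.11.2, with TAIR10 as build. Which program called the peaks, and how, is not given in the sources used. The deposited tables hold 1 peak list per library, with replicates not pooled. Per the file headers, each peak has a region log q score, an ef score, a ChIP score, its class, its nearest promoter and the TSS distance. These scores are the authors' own value per peak and were used only to rank or filter peaks within a list. Amplification can shift the balance between fragments, and a caller's threshold decides whether a site enters a list.

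Peaks of the 4 WT lists were merged at 1 bp of overlap, with Python 3.11.15, pandas 2.3.3, NumPy 2.4.6 and SciPy 1.17.1, and the merging was tested on simulated lists. A region takes the gene, class and distance of its peak with the highest within-list score percentile. Of the gained and lost regions, 7 had peaks assigned to different genes. The authors assigned 2993 genes, and the RefSeq table of TAIR10.1 listed 2952 of them; it was used for names and for the 27444 nuclear protein-coding genes only. Per-library values were compared by exact two-sided permutation tests, with 0.333 as the smallest p (0.5 within 2 pairs). Peak lists hold no expression values, so the tissue could not be checked against markers.

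Named genes were the 15 highest gained and 8 highest lost regions by mean percentile, gained and lost genes of the lists, the 8 largest differences in each direction among regions called in all 4 lists without overlap of the times, and WRKY18, WRKY40, WRKY33 and FRK1. List genes called in all 4 lists and second sites were chosen after their values were seen. The regions and gene lists were chosen with earlier results of these data known. Same-numbered libraries form pairs, because the series' design text describes 4 conditions for each of 2 biological replicates. The difference in calls between replicates at 2 h correlated with that at 0 h across regions (0.32). Same-numbered lists shared 43.7% and 48.7% of their joint regions, against 41.2% for the 2 h replicates and 42.2% for the 0 h replicates. Alternatives were other merging rules, score and ef score thresholds, equal list lengths, genes in place of regions, leaving out each library and the replicate block. The W-box element was not analysed here.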

Additional observations from a re-analysis of the deposited data

Results flagged for a closer look

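WRKY40 had 2 regions whose percentile difference, 2 h minus 0 h, had opposite signs in the 2 genotypes in every replicate pair. At the promoter region, 939 bp upstream of the TSS, the mutant pairs differed by 45.6 and 0.608 points and the WT pairs by -26.7 and -0.177 points, with a WT mean of -13.4. At the region 3148 bp upstream, the mutant pairs differed by 2.80 and 0.0129 points and the WT pairs by -13.2 and -0.0282 points, with a WT mean of -6.62. In replicate pair 2 all 4 of these differences were below 1 point, so each contrast rests on pair 1. The difference between genotypes was not tested.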

How the results depend on the processing

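Of 72 alternative values, 47 stayed within the limits set for them and 25 moved. The differences in peaks per list, genes per list and promoter share kept their sign under every alternative tried for them. At an ef score of 5 or more the unpaired times overlapped in peaks (difference 417.5) and genes (337.5), with an exact permutation p of 0.667 for each. In peaks, both 2 h lists still exceeded the 0 h list of the same replicate number. With peaks of a score above the list median alone, 126 regions were gained and 43 lost. With equal numbers of peaks 104 were gained and 125 lost (45.4% gained, against 78.9% as deposited), so the balance reversed at equal list length, a setting that balances the counts by its construction. Ranked among the 592 shared regions alone, 106 were above and 133 below, against 132 and 102, which also reverses the balance. Leaving out 1 library at a time gave 404 to 810 gained and 129 to 247 lost regions, 215 to 261 regions of the all-4 set above and 155 to 214 below, because fewer lists have to meet the rule. The replicate block, which counts within same-numbered pairs, gave means of 925.5 gained and 333 lost regions, and 247 regions above and 175 below in both pairs. The promoter share of gained minus lost regions was -18.6 percentage points, with alternatives chosen after seeing the data; it ranged from -21.4 to -12.2 when 1 library was left out, the last without WT 0 h replicate 2. Both planned settings of the W-box motif were not run. No depth per library or peak was used here, so a site absent from a list may be a site below the caller's threshold, and 2 replicates per time limit every test to a p of 0.333.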

Other observations

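Genes annotated as FAD-binding and BBE domain proteins, the group of AT1G26380, were looked at as a family after its values were seen. They had 11 WT regions at 9 genes, of which 4 were gained, 5 were called in all 4 lists and 0 were lost, where 7.89%, 18.3% and 2.11% of all WT regions were gained, called in all 4 and lost. The 4 gained include the AT1G26380 region that led to the choice of the family, so the counts are a description only. AT1G26410, a near neighbour of AT1G26380 on chromosome 1, had a gained promoter region with 71.2 and 69.7 at 2 h. AT1G26420, next to it, was called in all 4 lists, with 95.7 and 91.6 at 2 h and 79.2 and 50.3 at 0 h. AT4G20860 and AT5G44380 had gained regions of low rank, with 29.4 and 22.3 for AT4G20860 and 21.1 and 14.2 for AT5G44380. AT1G30700 had 2 regions with different values: the site 1150 bp upstream had 26.1 and 14.2 at 2 h and 64.6 and 78.9 at 0 h, while the promoter site 264 bp upstream had 95.41 and 94.99 at 2 h and 94.5 and 89.8 at 0 h. The labels do not state how reads that match several members were treated.

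Plasma membrane proton pump genes and further annotation words were also chosen after their values were seen. HA1 had a gained site 4947 bp upstream of its TSS, with 92.5 and 55.5 at 2 h. HA2 had a gained site 1808 bp upstream, with 56.7 and 64.4 at 2 h, beside a site 5899 bp upstream that was called in all 4 lists. The word kinase stood in the description of 34 of 247 genes with a gained region (13.8%) and 6 of 68 with a lost region (8.82%). It did so for 12.0% of genes with a region called in all 4 lists and 10.0% of genes with any WT region. RING or U-box stood in the description of 9 genes with a gained region (3.64%) and 0 with a lost region. The share was 1.55% of genes with a region called in all 4 lists and 1.70% of genes with any WT region. Hypothetical protein, pentatricopeptide and ribosomal protein were also counted. They made up 12.1%, 0.810% and 1.21% of genes with a gained region, against 16.5%, 0.884% and 0.578% of genes with any WT region.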
